A study of Mus musculus with 50 samples.

Results

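Transforming growth factor beta (TGFβ) signalling was followed through 10 genes, Tgfb1, Nrros, Tgfbr1, Tgfbr2, Smad2, Smad3, Smad4, Smad7, Smurf1 and Ski, in the RNA of sorted mouse microglia. They are all the genes of the list, each matched by its symbol to 1 row of the counts, out of 53700 genes counted. All 10 passed the filter on low counts, which kept the 16696 genes with at least 1 CPM (a gene's count scaled to a library of 1000000 counts) in 3 or more mice. The rule that formed the list used the place of the genes in the pathway and no threshold on a measured value. The genes were, however, chosen with earlier results of these data known.

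The study asked how early-life stress (ELS) changes microglia at once, in adulthood and under an immune challenge. Litters of C57BL/6J mice had limited bedding and nesting material (ELS) or standard housing (CTR) from P2 to P9, and 50 male mice were used. At P9 there were 12 P9-CTR and 13 P9-ELS mice without injection. At P200 mice received PBS or 1 mg/kg lipopolysaccharide (LPS, from the outer membrane of bacteria, which sets off innate immune responses) intraperitoneally and were killed 3 h later, giving 7 CTR and 6 ELS mice with PBS (P200-CTR-PBS and P200-ELS-PBS) and 7 CTR and 5 ELS mice with LPS. Microglia were sorted from the hippocampus of each mouse by a CD45int CD11b+ gate, and each mouse gave 1 poly-A library. Myelin was removed with Percoll from adult brains but not at P9, and only P200 mice were injected, so that age, Percoll and injection cannot be told apart in the comparisons of P200 with P9.

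TGFβ1 is secreted in a latent form and is held on the microglial surface by NRROS (also named LRRC33), from which integrins release it. The free ligand joins a type II receptor (TGFBR2) to a type I receptor (TGFBR1), which phosphorylates SMAD2 and SMAD3. These bind SMAD4 and enter the nucleus, while SMAD7, the ubiquitin ligase SMURF1 and the repressor SKI hold the signal back. In the brain this pathway is known to be needed for the identity of mature microglia.

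Libraries held 5152838 to 42231258 counts (median 19960410), and littermates shared a housing condition, so that p-values measure the spread between these mice. Counts of mice within a group differed by more than sampling noise in each pair. Fewer than 16000 genes had a count above 0 in 3 libraries, P9_19.2_ELS (15731 genes), P9_19.3_ELS (12482) and P200_1.1_CTR_PBS (12854), named as in the labels. Results are given for all mice, and where these libraries matter also without them. The 10 microglia markers summed to 36290 to 81710 CPM over the 50 mice, against 2.54 to 134 CPM for 7 neuronal and 0.712 to 11.0 CPM for 6 monocyte and neutrophil markers, of which the neutrophil marker Ly6g was at 0 in all 50 mice. Sums were higher for border-associated macrophage markers (1.865 to 920 CPM) and astrocyte markers (116 to 618 CPM). Oligodendrocyte lineage markers summed to 3.05 to 71.6 CPM and endothelial and mural markers to 0 to 45.9 CPM. In bulk libraries, a lower level of a transcript can come from fewer expressing cells or from less RNA per cell, and these cannot be told apart.

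Per length, the transcripts of the pathway differed widely. In P200-CTR-PBS mice (n = 7) the level per kb of exon was highest for Tgfbr1 at 513 ± 111 CPM per kb (mean ± SD), followed by Nrros at 123 ± 8.99 and Tgfbr2 at 49.0 ± 12.8. Ski stood at 24.1 ± 3.01 CPM per kb, above Smad3 (10.2 ± 2.86) and Smad2 (6.36 ± 1.31). Smad7 had 4.07 ± 0.994, Smurf1 1.94 ± 1.03, Tgfb1 1.46 ± 0.797 and Smad4 1.28 ± 0.641 CPM per kb. Surface receptors and the ligand anchor were thus the abundant transcripts, while the ligand itself and the shared SMAD were at the low end, where the last 3 differed by less than their SD. With the length of the longest transcript in place of all exons, Tgfb1 (2.88 CPM per kb) stood above Smurf1 (2.41).

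**Figure D1:**
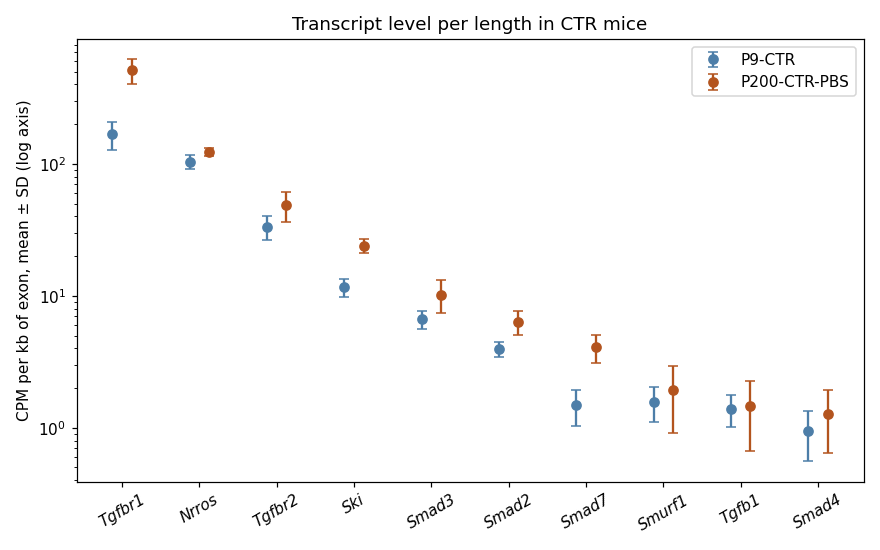
Level per kb of exon (CPM per kb, log axis) of the 10 genes in P9-CTR (12 mice) and P200-CTR-PBS (7 mice), ordered by the adult level, with points for means and bars for the SD. Tgfbr1 reached 513 CPM per kb in adults and Smad4 1.28.

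Tgfb1 (ENSMUSG00000002603, chromosome 7 of GRCm39, 25386390 to 25404506, plus strand), the ligand, was lowly counted. In CPM, the lowest, median and highest mice had 3.84, 7.24 and 9.50 in P9-CTR and 4.60, 6.89 and 8.80 in P9-ELS. They had 0.204, 8.37 and 12.7 in P200-CTR-PBS, 10.5, 13.8 and 15.3 in P200-ELS-PBS, and 6.99, 16.4 and 20.5 in P200-CTR-LPS. The 5 P200-ELS-LPS mice had 12.9, 13.3, 14.5, 14.6 and 17.05 CPM. The P200-ELS-PBS mice were all above the P9-ELS mice, while the P200-CTR-PBS mice spanned the range of the P9-CTR mice. The lowest value was a count of 4 in P200_1.1_CTR_PBS, without which the P200-CTR-PBS mean rose from 7.42 ± 4.05 (n = 7) to 8.62 ± 2.75 CPM (n = 6).

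Nrros (ENSMUSG00000052384, chromosome 16, 31960320 to 31984521, minus strand) anchors latent TGFβ1 on microglia. Its lowest, median and highest CPM were 608, 791 and 928 in P9-CTR, 67.6, 884 and 1001 in P9-ELS, 823, 963 and 1017 in P200-CTR-PBS and 714, 885 and 1269 in P200-ELS-PBS. After LPS they were 1297, 1520 and 1703 in CTR mice, and the 5 ELS mice had 1403, 1553, 1664, 1747 and 1748 CPM. Every mouse given LPS stood above every mouse of the other 4 groups. The value of 67.6 CPM was that of P9_19.2_ELS, and the other P9-ELS mice had 687 CPM or more.

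Tgfbr1 (ENSMUSG00000007613, chromosome 4, 47353134 to 47414931, plus strand), the type I receptor kinase, had a lowest, median and highest CPM of 595, 1130 and 1589 in P9-CTR and 404, 1264 and 1530 in P9-ELS. In P200-CTR-PBS these were 2619, 3212 and 4750, and in P200-ELS-PBS 3011, 4026 and 5092. After LPS they were 1259, 2525 and 3582 in CTR mice, and the ELS mice had 774, 2052, 2382, 3045 and 3089 CPM. The PBS mice of P200 were all above all P9 mice, and the LPS mice lay between and overlapped both. The 2 lowest P9-ELS mice were P9_19.3_ELS and P9_19.2_ELS.

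Tgfbr2 (ENSMUSG00000032440, chromosome 9, 115913361 to 116004800, minus strand), the type II receptor that binds the ligand, had a mean of 292 ± 61.0 CPM in P9-CTR (n = 12) and 281 ± 89.3 in P9-ELS (n = 13). The 4 groups of P200 had 431 ± 112 (CTR-PBS, n = 7), 506 ± 128 (ELS-PBS, n = 6), 519 ± 239 (CTR-LPS, n = 7) and 505 ± 151 CPM (ELS-LPS, n = 5). The adult means lay within 1 SD of each other, and single LPS mice went from 255 to 891 CPM. Of its exon length 5.04% is shared with an antisense gene of the annotation, and the counting's strand setting was not given in the sources used here.

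Smad2 (ENSMUSG00000024563) and Smad3 (ENSMUSG00000032402, chromosome 9, 63554049 to 63665476, minus strand) are the receptor-regulated SMADs of this pathway. Smad2 had 44.6 ± 5.99 CPM in P9-CTR (n = 12), 41.1 ± 10.4 in P9-ELS (n = 13), 71.5 ± 14.7 in P200-CTR-PBS (n = 7), 58.5 ± 6.26 in P200-ELS-PBS (n = 6), 60.2 ± 11.0 in P200-CTR-LPS (n = 7) and 54.9 ± 17.16 in P200-ELS-LPS (n = 5). Smad3 had 38.5 ± 5.83, 35.9 ± 11.7, 59.3 ± 16.5, 69.3 ± 19.06, 57.4 ± 9.95 and 53.8 ± 9.29 CPM in the same order of groups. Both were lowest in the P9 groups, and the neighbouring P200 means of each differed by less than 1 SD. Single libraries weighed on these means, since Smad3 had 1.17 CPM in P9_19.2_ELS and Smad2 had 13.8 CPM in P9_19.3_ELS.

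Smad4 (ENSMUSG00000024515), the partner of both, had 6.88 ± 2.86 CPM in P9-CTR, 8.28 ± 2.80 in P9-ELS, 9.3 ± 4.65 in P200-CTR-PBS, 12.4 ± 5.32 in P200-ELS-PBS, 16.1 ± 6.37 in P200-CTR-LPS and 18.4 ± 4.58 in P200-ELS-LPS (n = 12, 13, 7, 6, 7 and 5). Each neighbour in this order differed by less than 1 SD. A single count of Smad4 was found in P200_1.1_CTR_PBS, and without it the P200-CTR-PBS mean was 10.8 ± 2.46 CPM (n = 6).

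Smad7 (ENSMUSG00000025880), the inhibitory SMAD that recruits ubiquitin ligases to the receptor, had a lowest, median and highest CPM of 3.93, 6.70 and 11.8 in P9-CTR and 4.19, 6.43 and 9.83 in P9-ELS. These were 14.0, 19.6 and 25.9 in P200-CTR-PBS, 16.5, 24.0 and 28.1 in P200-ELS-PBS and 10.4, 24.9 and 30.9 in P200-CTR-LPS. The P200-ELS-LPS mice had 13.5, 16.0, 16.4, 22.5 and 26.6 CPM. All adult PBS mice were above all P9 mice, the 3 libraries with few genes included.

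Smurf1 (ENSMUSG00000038780, chromosome 5, 144813300 to 144902866, minus strand), a ubiquitin ligase for receptors and SMADs, had a lowest, median and highest CPM of 6.41, 10.9 and 16.7 in P9-CTR and 5.65, 8.83 and 14.2 in P9-ELS. These were 0, 15.6 and 21.7 in P200-CTR-PBS, 13.3, 19.6 and 34.6 in P200-ELS-PBS and 8.37, 17.27 and 22.3 in P200-CTR-LPS. The mean of the P200-ELS-LPS mice was 18.0 ± 4.09 CPM (n = 5). The value of 0 was that of P200_1.1_CTR_PBS, and the other P200-CTR-PBS mice had 10.6 CPM or more.

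Ski (ENSMUSG00000029050, chromosome 4, 155238532 to 155307543, minus strand) encodes a repressor of SMAD complexes. Its lowest, median and highest CPM were 51.9, 68.9 and 87.3 in P9-CTR, 23.4, 70.6 and 83.5 in P9-ELS, 112, 145 and 171 in P200-CTR-PBS, 115, 147 and 214 in P200-ELS-PBS and 102, 116 and 153 in P200-CTR-LPS. The P200-ELS-LPS mice had 134, 137, 137, 145 and 154 CPM. Every P200 mouse was above every P9 mouse.

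**Figure D2:**
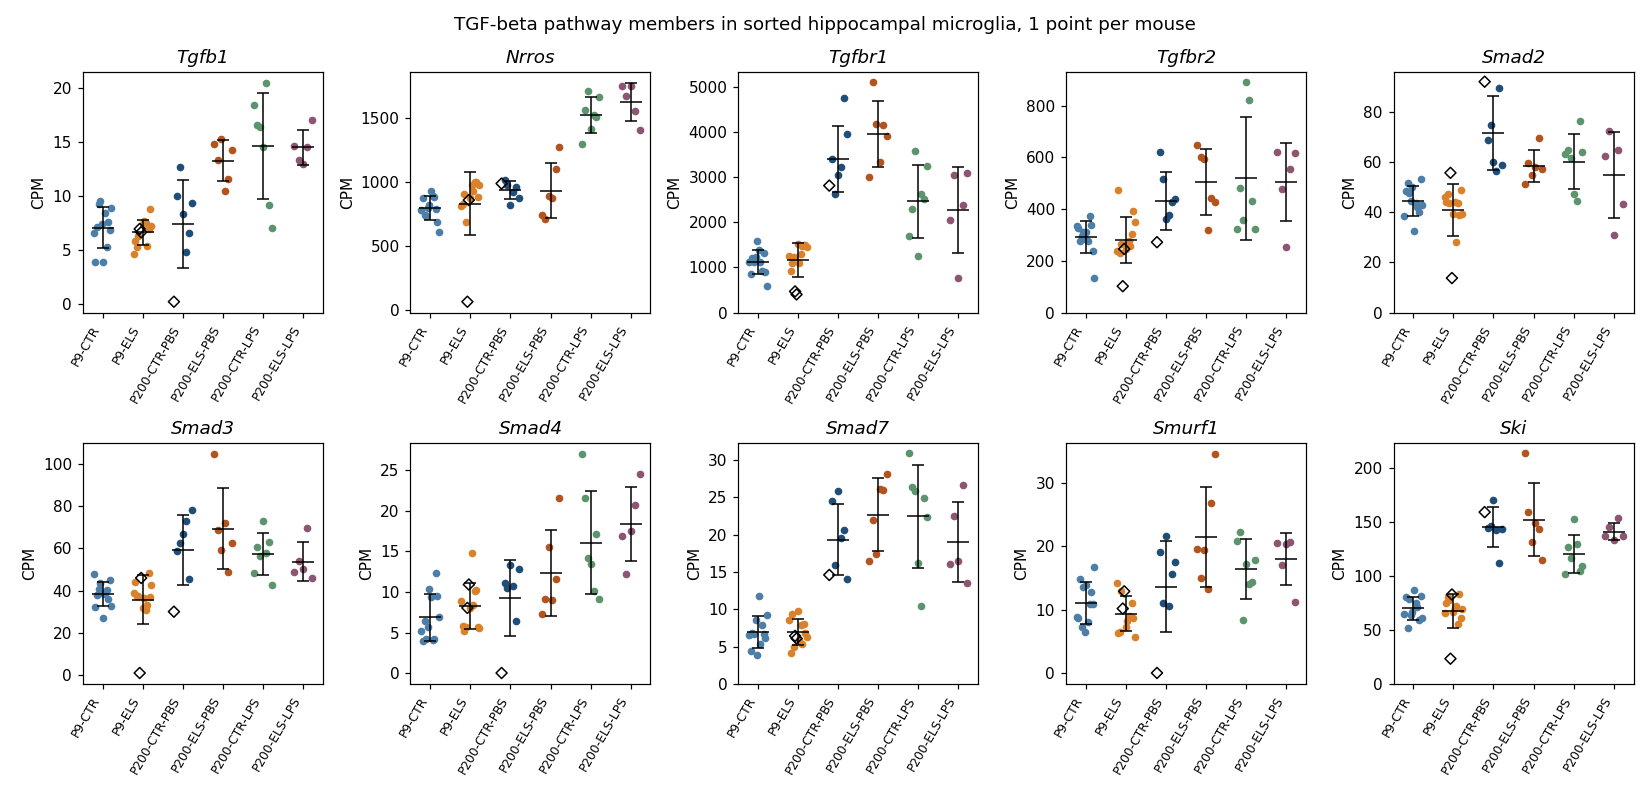
CPM of each of the 10 genes by group, with 1 point per mouse, the group mean as a dash and the SD as a bar. Open diamonds are the 3 libraries with fewer than 16000 genes detected, and the panels of Tgfbr1, Smad7 and Ski show all P200 PBS mice above all P9 mice.

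The stretches before the annotated start are shown for Tgfbr1 and Ski, which rose together with age, and for Nrros, which rose with LPS. They are the 250 bases upstream in RefSeq's table for GRCm38.p6, at chr4:47352972-47353221 (plus strand), chr4:155222536-155222785 (minus strand) and chr16:32165595-32165844 (minus strand), in another build than the counts. Tgfbr1 has 2 such stretches in the table, and the more upstream of them is shown. Capitals mark GGGCGG (a GC box) and CAGAC (the core of a SMAD-type box), each searched on both strands.
Tgfbr1: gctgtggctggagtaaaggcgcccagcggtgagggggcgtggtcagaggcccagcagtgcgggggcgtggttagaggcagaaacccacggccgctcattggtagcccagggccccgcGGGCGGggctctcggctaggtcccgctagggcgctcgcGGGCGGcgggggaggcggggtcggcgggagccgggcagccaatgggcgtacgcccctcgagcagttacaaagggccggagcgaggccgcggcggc
Ski: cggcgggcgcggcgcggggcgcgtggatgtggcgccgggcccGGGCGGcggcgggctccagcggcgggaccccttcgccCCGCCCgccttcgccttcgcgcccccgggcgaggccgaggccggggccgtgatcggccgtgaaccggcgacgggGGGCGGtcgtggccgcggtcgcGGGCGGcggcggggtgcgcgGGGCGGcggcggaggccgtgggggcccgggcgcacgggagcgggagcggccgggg
Nrros: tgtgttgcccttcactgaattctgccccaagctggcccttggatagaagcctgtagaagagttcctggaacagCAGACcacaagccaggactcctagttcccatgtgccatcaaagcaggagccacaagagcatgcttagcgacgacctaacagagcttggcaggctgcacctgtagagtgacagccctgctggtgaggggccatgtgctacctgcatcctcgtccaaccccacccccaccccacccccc
The stretch of Ski held 5 GC boxes and that of Tgfbr1 2, and neither held CAGAC. The other stretch of Tgfbr1, which is not shown, held 1 CAGAC and no GC box. The stretch of Nrros held 1 CAGAC and no GC box. In the stretches shown, the shares of G and C were 74.8%, 87.6% and 58.4% for Tgfbr1, Ski and Nrros. Of all 32851 upstream stretches of this length, 32.7% held GGGCGG and 42.2% held CAGAC, and these are matches of letters, not binding sites.

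At P200 compared with P9, both receptors, both receptor-regulated SMADs and the inhibitors Smad7 and Ski rose in CTR and in ELS mice. In CTR mice 6 of the 10 genes passed edgeR's quasi-likelihood test at an adjusted p under 0.05, all 6 higher in P200-CTR-PBS, where 44.1% of the genes tested passed and 17.4% passed as higher. Tgfbr1 rose by a log2 fold change of 1.61 (SE 0.21, adjusted p = 1.22e-08), Smad7 by 1.46 (SE 0.19, adjusted p = 1.99e-08) and Ski by 1.05 (SE 0.14, adjusted p = 7.83e-09). Smad2 rose by 0.68 (SE 0.16, adjusted p = 0.000346), Smad3 by 0.62 (SE 0.25, adjusted p = 0.0358) and Tgfbr2 by 0.56 (SE 0.21, adjusted p = 0.0231). The other 4 did not pass, with log2 fold changes of 0.08 (SE 0.28) for Tgfb1, 0.24 (SE 0.19) for Nrros, 0.44 (SE 0.34) for Smad4 and 0.30 (SE 0.34) for Smurf1. Tgfbr1, Smad2, Smad7 and Ski had no overlap between the groups, which held for 6.56% of the genes tested in this direction. Smad3 lost its call without P200_5.2_CTR_PBS, P200_8.1_CTR_PBS, P200_15.1_CTR_PBS or P200_18.2_CTR_PBS (adjusted p = 0.0553, 0.0622, 0.0738 and 0.0867), and Tgfbr2 without P200_5.1_CTR_PBS or P200_5.2_CTR_PBS (adjusted p = 0.085 and 0.0524). With counts summed per nest, taken as the first number of a mouse's name, Tgfbr2 also lost its call (log2 fold change 0.42, adjusted p = 0.218). With a log2 fold change above 1 or under -1 as an added condition, 3 members were called, against 26.4% of the genes tested.

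Without the 3 libraries with few genes, 9 of the 10 genes were higher at P200 in CTR mice at an adjusted p under 0.05, where 50.1% of 16581 genes passed and 21.1% passed as higher. Smad4 (log2 fold change 0.66, SE 0.25, adjusted p = 0.0256), Smurf1 (0.53, SE 0.21, adjusted p = 0.0362) and Nrros (0.23, SE 0.09, adjusted p = 0.0342) joined the 6, and Tgfb1 did not (0.29, SE 0.19, adjusted p = 0.21). Without P200_1.1_CTR_PBS alone, Smad4 (adjusted p = 0.0306) and Smurf1 (adjusted p = 0.0453) passed.

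In ELS mice 8 of the 10 genes were higher in P200-ELS-PBS (n = 6) than in P9-ELS (n = 13), where 42.2% of the genes tested passed and 17.15% passed as higher. Tgfbr1 rose by a log2 fold change of 1.75 (SE 0.21), Smad7 by 1.71 (SE 0.20), Smurf1 by 1.2 (SE 0.34) and Ski by 1.16 (SE 0.14). Tgfb1 rose by 1.00 (SE 0.28), Smad3 by 0.95 (SE 0.25), Tgfbr2 by 0.85 (SE 0.21) and Smad2 by 0.51 (SE 0.16). The adjusted p was between 5.01e-10 (Smad7) and 0.00914 (Smad2), and the groups did not overlap for Tgfb1, Tgfbr1, Smad3, Smad7 and Ski, as for 4.6% of the genes tested in this direction. Nrros (0.17, SE 0.20) and Smad4 (0.58, SE 0.35) did not pass, and Smad4 did without the 3 libraries (0.62, SE 0.25, adjusted p = 0.0408). With counts summed per nest, Tgfb1, Smad2 and Smurf1 were no longer called (adjusted p = 0.106, 0.125 and 0.114). With the added condition on the log2 fold change 4 members were called, against 26.2% of the genes tested.

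Markers of other cells moved with age as well. Border-associated macrophage markers summed to 731 ± 127 CPM in P9-CTR (n = 12) and 7.17 ± 2.91 in P200-CTR-PBS (n = 7), with 6 of 6 lower, and in ELS mice to 730 ± 127 (n = 13) and 5.40 ± 0.987 CPM (n = 6). Neuronal markers summed to 97.4 ± 27.8 CPM in P9-CTR and 6.90 ± 3.06 in P200-CTR-PBS, and 7 of 7 were lower. The 10 microglia markers summed to 50420 ± 5851 CPM in P9-CTR and 79560 ± 2230 in P200-CTR-PBS. The part of these shifts in the changes of the pathway was not tested.

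Whether the age differences of these genes differed between ELS and CTR mice was tested by the interaction. In the test of the interaction of age and ELS 0 of the 10 genes passed, where 5 genes of all tested passed (0.0299%), 29 in the likelihood-ratio test, 20 in DESeq2 and 0 without P200_1.1_CTR_PBS, P200_5.1_CTR_PBS, P200_15.1_CTR_PBS, P200_18.2_CTR_PBS or P200_4.1_ELS_PBS, and 1 member, against 10.3% of the genes tested, had an unadjusted p under 0.05. This was Tgfb1, whose age difference was 0.92 larger in ELS mice on the log2 scale (SE 0.41, p = 0.0286, adjusted p = 0.435). For Smurf1, called in ELS mice and not in CTR mice, the difference was 0.90 (SE 0.50, adjusted p = 0.541). Without the 3 libraries these were 0.71 (SE 0.28, adjusted p = 0.443) and 0.74 (SE 0.31, adjusted p = 0.478).

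With LPS, Nrros passed as higher in CTR and ELS mice, Tgfb1 as higher in CTR mice and Tgfbr1 as lower in ELS mice. Neither Tgfb1 nor Tgfbr1 passed in the interaction of LPS and ELS given below. In CTR mice 2 of the 10 genes passed, both higher after LPS, where 14.9% of the genes tested passed and 8.73% passed as higher. Nrros rose from 938 ± 68.5 to 1522 ± 139 CPM (n = 7 in both groups), by a log2 fold change of 0.70 (SE 0.22, adjusted p = 0.0231) with no overlap, as for 4.92% of the genes tested in this direction. Without the 3 libraries the adjusted p of Nrros was 4.48e-07 at a log2 fold change of 0.71 (SE 0.10). Tgfb1 rose from 7.42 ± 4.05 to 14.6 ± 4.89 CPM (log2 fold change 0.98, SE 0.32, adjusted p = 0.0303), and 5 of 7 LPS mice were above all PBS mice. Without the 3 libraries it was 0.76 (SE 0.22, adjusted p = 0.00936).

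The call of Tgfb1 was lost when 1 of 5 mice was left out, P200_1.2_CTR_LPS, P200_1.3_CTR_LPS or P200_8.3_CTR_LPS (adjusted p = 0.0601, 0.0529 and 0.071) or P200_15.1_CTR_PBS or P200_18.1_CTR_PBS (adjusted p = 0.0653 and 0.053). It was also lost when only the 2 groups were fitted (adjusted p = 0.217) and when counts were summed per nest (adjusted p = 0.121). No member was called with the added condition on the log2 fold change, against 9.62% of the genes tested. Tgfbr1 had a mean of 3397 ± 736 CPM with PBS and 2462 ± 811 with LPS in CTR mice, a log2 fold change of -0.46 (SE 0.24, adjusted p = 0.214) that did not pass. Without the 3 libraries with few genes it was -0.51 (SE 0.21, adjusted p = 0.083). Smad4 (0.79, SE 0.39, adjusted p = 0.184) and Ski (-0.27, SE 0.16, adjusted p = 0.267) did not pass either.

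In ELS mice 2 of the 10 genes passed, 1 higher and 1 lower after LPS, where 12.3% of the genes tested passed, 7.4% as higher and 4.94% as lower. Nrros rose from 932 ± 216 CPM (P200-ELS-PBS, n = 6) to 1623 ± 147 (P200-ELS-LPS, n = 5), by a log2 fold change of 0.80 (SE 0.25, adjusted p = 0.0242) with no overlap, as for 5.65% of the genes tested in this direction. Its call was lost without P200_2.1_ELS_PBS or P200_4.1_ELS_PBS (adjusted p = 0.0558 and 0.0602) or P200_2.2_ELS_LPS (0.0518), while without the 3 libraries the adjusted p was 1.87e-07. Tgfbr1 fell from 3946 ± 729 to 2268 ± 945 CPM (log2 fold change -0.80, SE 0.28, adjusted p = 0.0482), and 3 of 5 LPS mice were below all PBS mice. Without the 3 libraries it was -0.80 (SE 0.23, adjusted p = 0.00945).

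The call of Tgfbr1 in ELS mice stood close to the threshold. It was lost in 14 of the 25 fits that each left out 1 P200 mouse, with an adjusted p from 0.0508 to 0.176. These were P200_4.1_ELS_PBS, P200_11.1_ELS_PBS, P200_17.2_ELS_PBS, P200_20.2_ELS_PBS, P200_2.2_ELS_LPS, P200_11.2_ELS_LPS, P200_17.3_ELS_LPS, P200_5.1_CTR_PBS, P200_8.1_CTR_PBS, P200_15.1_CTR_PBS, P200_18.2_CTR_PBS, P200_1.3_CTR_LPS, P200_8.3_CTR_LPS and P200_15.2_CTR_LPS. The highest adjusted p, at a log2 fold change of -0.58, was without P200_11.2_ELS_LPS, which had 774 CPM. No member was called with the added condition on the log2 fold change, against 7.86% of the genes tested. Tgfb1, at 13.3 ± 1.89 CPM with PBS and 14.5 ± 1.61 with LPS, did not pass in ELS mice (0.13, SE 0.36, adjusted p = 0.886), nor did Smad3 (-0.36, SE 0.32) or Smad4 (0.57, SE 0.44).

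Other markers moved with LPS. The 6 astrocyte markers summed to 363 ± 68.8 CPM in P200-CTR-PBS and 559 ± 48.0 in P200-CTR-LPS (n = 7 in both), where 1 of 6 passed as higher. The 6 endothelial and mural markers summed to 5.72 ± 3.25 and 24.6 ± 10.3 CPM, with Ly6c1 at 0 in both groups. Microglia markers summed to 79560 ± 2230 and 70590 ± 4197 CPM, and 2 of 10 passed as lower. In ELS mice the astrocyte sum was 391 ± 53.43 CPM with PBS (n = 6) and 524 ± 61.8 with LPS (n = 5), where 2 of 6 passed as higher. The part of these shifts in the changes of Nrros, Tgfb1 and Tgfbr1 was not tested.

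**Figure D3:**
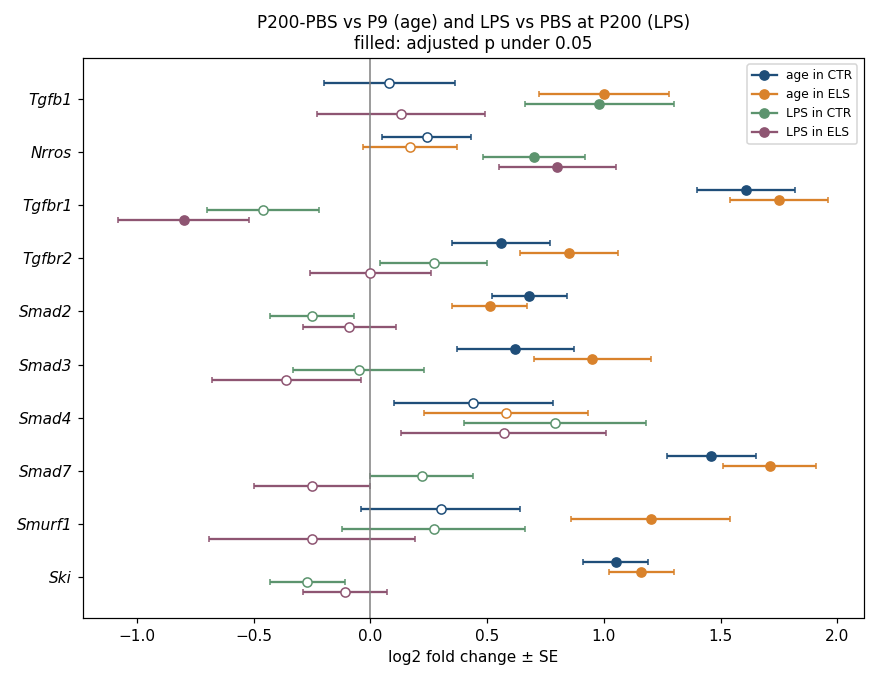
Log2 fold change (x axis, bars for the SE) of the 10 genes for P200 PBS against P9 mice and for LPS against PBS at P200, in CTR and in ELS mice. Filled points passed an adjusted p of 0.05, and the age differences of Tgfbr1, Smad7 and Ski were between 1.05 and 1.75.

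In the interaction of LPS and ELS 0 of the 10 genes and 0 of all genes tested passed (0%) in edgeR's quasi-likelihood test, and 980 genes (5.87%) but no member had an unadjusted p under 0.05. DESeq2 called 11 genes and edgeR's likelihood-ratio test 66, with no member among them. The largest difference was that of Tgfb1, with a log2 response 0.85 smaller in ELS mice than in CTR mice (SE 0.48, p = 0.0839, adjusted p = 0.885). For Tgfbr1, called in ELS mice and not in CTR mice, the difference was -0.33 (SE 0.37, adjusted p = 0.971).

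Within each mouse, the ratio of Tgfbr1 to Tgfbr2 was taken from the counts per kb of exon, which needs no scaling between libraries. It was chosen after the values were seen and is given with no test. The lowest, median and highest ratios were 3.27, 5.21 and 7.44 in P9-CTR, 2.18, 6.14 and 8.32 in P9-ELS, 6.73, 11.3 and 14.8 in P200-CTR-PBS and 6.18, 11.7 and 13.9 in P200-ELS-PBS. After LPS they were 1.88, 6.95 and 13.4 in CTR mice, and the mean was 5.84 ± 1.80 in ELS mice (n = 5). The type I receptor transcript exceeded the type II transcript in every mouse, most in adult PBS mice, and the groups overlapped.

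**Figure D4:**
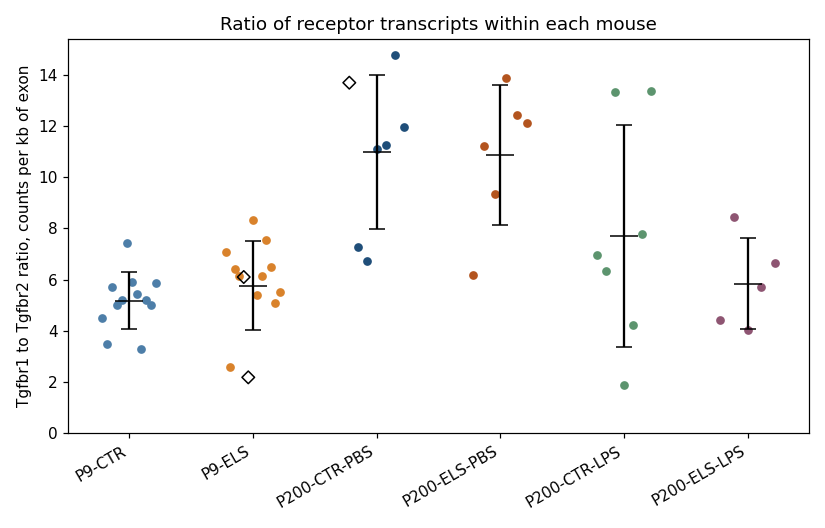
Ratio of Tgfbr1 to Tgfbr2 counts per kb of exon (y axis, no unit) in each mouse by group, with the mean as a dash and the SD as a bar. Open diamonds are the 3 libraries with few genes, and the medians were 5.21 in P9-CTR and 11.3 in P200-CTR-PBS.

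Between ELS and CTR mice of the same age and treatment, none of the 10 genes passed in edgeR's quasi-likelihood test, in its likelihood-ratio test or in DESeq2. At P9, 0 of 10 members and 0 of all genes passed the quasi-likelihood test (0%), against 1 gene in the likelihood-ratio test and 0 in DESeq2, and 914 genes (5.47%) but no member had an unadjusted p under 0.05. The log2 fold changes of the members lay between -0.25 for Smurf1 (SE 0.29) and 0.27 for Smad4 (SE 0.29). Without the 3 libraries with few genes, Nrros had an unadjusted p under 0.05 in the quasi-likelihood test, as did 866 of 16581 genes. Its log2 fold change was 0.18 (SE 0.08, p = 0.0251, adjusted p = 0.878). At P200 with PBS, 0 of 10 members passed against 28 of all genes in the quasi-likelihood test (0.168%). The likelihood-ratio test called 215 genes and DESeq2 170. Of the 25 fits that left out 1 P200 mouse 17 moved this count by over 1.5 times, from 1 without P200_1.1_CTR_PBS, P200_5.1_CTR_PBS, P200_4.1_ELS_PBS or P200_20.2_ELS_PBS to 83 without P200_15.1_CTR_PBS. The log2 fold changes of the members lay between -0.29 for Smad2 (SE 0.19) and 0.84 for Tgfb1 (SE 0.33). Tgfb1 was the 1 member with an unadjusted p under 0.05, against 9.71% of the genes tested (p = 0.0148, adjusted p = 0.327), with a mean of 13.3 ± 1.89 CPM in ELS and 7.42 ± 4.05 in CTR mice, and 4 of 6 ELS mice were above all CTR mice. Without the 3 libraries this difference was 0.62 (SE 0.23, p = 0.00871, adjusted p = 0.257). Smurf1 had a log2 fold change of 0.65 (SE 0.40, adjusted p = 0.658), which was 0.43 (SE 0.25) without the 3 libraries. With LPS, 0 of 10 members and 0 of all genes passed the quasi-likelihood test (0%), against 10 genes in the likelihood-ratio test and 2 in DESeq2, with 798 genes (4.78%) and no member under an unadjusted p of 0.05. The members lay between -0.24 for Smad7 (SE 0.25) and 0.23 for Ski (SE 0.17).

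**Figure D5:**
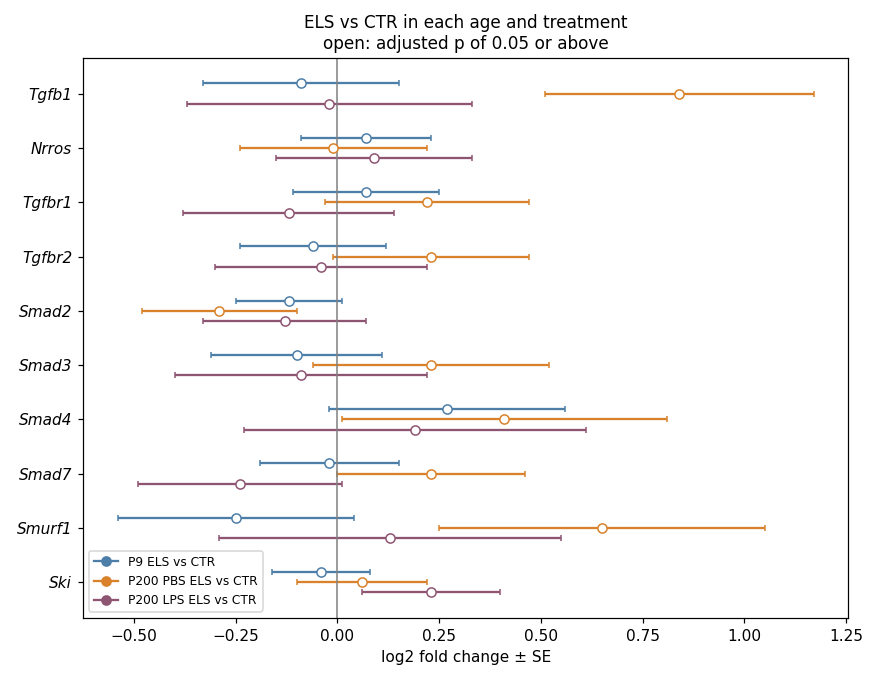
Log2 fold change of ELS against CTR mice (x axis, bars for the SE) of the 10 genes at P9, at P200 with PBS and at P200 with LPS. All points are open, since no adjusted p was under 0.05, and the farthest point is Tgfb1 at P200 with PBS (0.84).

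The rest of the pathway was taken from a list of 51 other genes, of which 43 were tested. With age in CTR mice 13 of the 43 rose and 10 fell, where 17.4% of all genes tested rose and 26.6% fell. Their median log2 fold change was 0.12 against -0.09 over all genes. In ELS mice 14 rose and 8 fell, where 17.15% and 25% of all genes did, with a median of 0.25 against -0.01. Among 9 tested ligands and latency genes, 3 rose and 3 fell in CTR mice, and 4 rose and 3 fell in ELS mice. Itgav, the integrin alpha chain that releases TGFβ1, rose by 1.08 (SE 0.19) in CTR and 1.19 (SE 0.19) in ELS mice. Its partner Itgb5 rose by 0.92 (SE 0.13) and 0.78 (SE 0.14). Itgb1 fell by 1.32 (SE 0.21) in CTR and by 0.59 (SE 0.21) in ELS mice. The integrin chain Itgb8 and the ligand Tgfb2 fell as well. Both are named after their values were seen and were near the limit of counting. Itgb8 had log2 fold changes of -2.5 (SE 0.96) in CTR and -5.3 (SE 1.27) in ELS mice. It stood at 1.72 CPM on average in P9-CTR and 0.299 in P200-CTR-PBS. Those of Tgfb2 were -4.11 (SE 1.09) and -3.28 (SE 1.1). Among 9 receptors, 4 rose in either condition and 1 fell in CTR mice, with the coreceptor Eng at 1.40 (SE 0.24) and 1.65 (SE 0.25) and Acvr1, a type I receptor of bone morphogenetic proteins, at 1.02 (SE 0.22) and 1.05 (SE 0.23). The receptor that fell, Tgfbr3 (betaglycan, a coreceptor), is named after its values were seen and was near the limit of counting, with 0.383 CPM on average in P9-CTR, where 5 of 12 mice had a count, and 0 in all P200-CTR-PBS mice. Zfyve9 (SARA), which presents SMADs to the receptor, rose by 0.82 (SE 0.32) and 1.2 (SE 0.32).

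Of 17 other genes of inhibition and ubiquitin control 3 rose and 5 fell with age in either condition. These counts were close to the shares of all genes tested. In CTR mice 17.4% rose and 26.6% fell, and in ELS mice 17.15% and 25%. The 5 that fell were not all the same genes, since Trim33 passed as lower in ELS mice only. The 3 that rose were Pmepa1, which sequesters SMADs (1.71, SE 0.23, in CTR and 1.45, SE 0.23, in ELS mice), Skil, a paralog of Ski (1.13, SE 0.22, and 1.06, SE 0.23), and Tgif1, a SMAD corepressor (1.12, SE 0.13, and 1.19, SE 0.13). Fkbp1a, which binds unliganded type I receptors, fell by 0.59 (SE 0.10) and by 0.70 (SE 0.10), and the ubiquitin ligase Wwp1 by 0.95 (SE 0.22) and by 0.92 (SE 0.23).

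With LPS, 5 of the 43 genes rose in either condition, and 3 fell in CTR and 0 in ELS mice. Of all genes tested 8.73% rose and 6.2% fell in CTR mice, and 7.4% rose and 4.94% fell in ELS mice. Their log2 fold changes had a median of 0.01 in CTR mice and -0.02 in ELS mice, against 0.00 and -0.04 over all genes tested. Skil rose from 276 ± 65.9 to 951 ± 186 CPM in CTR mice (n = 7 in both, log2 fold change 1.79, SE 0.27, adjusted p = 7.66e-07) and from 245 ± 43.7 to 859 ± 412 in ELS mice (1.81, SE 0.30, adjusted p = 6.84e-06). Traf6, which links receptors to the TAK1 kinase, rose by 1.14 (SE 0.18) and 1.12 (SE 0.20), and Tgif2 by 1.05 (SE 0.31) and 1.17 (SE 0.35). Bambi, of the inhibitor list, was below the level set for naming and is named after its values were seen. It rose from 0.644 ± 0.381 to 12.1 ± 2.04 CPM in CTR mice (4.21, SE 0.69). In ELS mice the rise of Bambi was 3.94 (SE 0.74). Furin, the protease that cuts the TGFβ1 precursor, fell by 0.76 (SE 0.19, adjusted p = 0.00293) and Zfyve9 by 1.06 (SE 0.37, adjusted p = 0.0436) in CTR mice. Itgb8, named after its values were seen, also fell in CTR mice (-4.47, SE 1.32). It was near the limit of counting, with a count in 2 of 7 PBS mice and 1 of 7 LPS mice. No gene of the 43 passed in a comparison of ELS with CTR mice or in an interaction.

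Readout lists were followed beside the pathway. Of 12 microglia genes known to need TGFβ, 9 rose and 1 fell with age in either condition, where 17.4% of all genes rose in CTR and 17.15% in ELS mice. Their medians were 0.81 and 0.64 against -0.09 and -0.01 over all genes. Tmem119 rose by 2.01 (SE 0.20) in CTR and 2.1 (SE 0.20) in ELS mice and Slc2a5 by 1.75 (SE 0.16) and 1.82 (SE 0.16), while Fcrls fell by 0.39 (SE 0.11) and by 0.48 (SE 0.11). Of 12 genes known to rise in microglia without Tgfbr2, 0 rose and 5 fell with age in CTR mice and 0 rose and 9 fell in ELS mice, where 26.6% and 25% of all genes fell, with Apoe from 8039 ± 1641 CPM in P9-CTR to 54.3 ± 26.9 in P200-CTR-PBS. Spp1 went from 226 ± 78.0 CPM in P9-CTR to 1.16 ± 1.04 in P200-CTR-PBS. Apoe and Spp1 are also expressed by border-associated macrophages, whose markers fell with age as given above. The part of these macrophages in the falls of Apoe and Spp1 was not tested.

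With LPS, 0 of the 12 microglia genes rose and 4 fell in CTR mice, and 1 rose and 3 fell in ELS mice. Of all genes tested 6.2% fell in CTR mice, and 7.4% rose and 4.94% fell in ELS mice. Sall1, a transcription factor of microglial identity, fell from 302 ± 58.4 to 91.1 ± 14.7 CPM in CTR mice (n = 7 in both, log2 fold change -1.73, SE 0.16, adjusted p = 1.17e-12) and from 325 ± 39.4 to 80.5 ± 30.4 in ELS mice (-2.01, SE 0.18). P2ry12, a purinergic receptor, fell by 0.62 (SE 0.16) and by 0.58 (SE 0.18), and Gpr34 by 0.75 (SE 0.20) and by 0.76 (SE 0.23). Of the 12 genes that rise without Tgfbr2, 5 rose and 0 fell in either condition, where 8.73% and 7.4% of all genes rose, with the chemokine Ccl2 from 13.9 ± 4.15 to 291 ± 72.7 CPM in CTR mice. The 5 were not all the same genes, since Apoe passed in CTR mice only and Cybb in ELS mice only. For LPS these 2 are named after their values were seen. With age, 17.4% of all genes tested rose and 26.6% fell in CTR mice, and 17.15% and 25% in ELS mice. Of 8 tested TGFβ target genes of many cell types, 4 rose and 2 fell with age in either condition. Among those that rose were Junb (1.40, SE 0.30, in CTR and 1.74, SE 0.30, in ELS mice), and Pmepa1 and Skil, which were also counted among the pathway genes above. Those that fell were Id1 and Id3, inhibitors of differentiation, with Id3 at 8.63 ± 2.61 CPM in P9-CTR and 0.208 ± 0.217 in P200-CTR-PBS (-5.45, SE 0.70) and lower by -4.34 (SE 0.69) on the log2 scale in ELS mice. Id1 is named after its values were seen. With LPS, 6 of the 8 rose in either condition, with Junb at 3.79 (SE 0.38) and 3.95 (SE 0.42), and Tgfbi fell in CTR mice (-0.59, SE 0.19). Junb, Ccl2 and Spp1 also respond to other signals than TGFβ.

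Genes of the most similar pattern were sought over the 50 mice by Pearson r of log2 CPM among 6474 genes with a mean log2 CPM of at least 4. For Tgfbr1 these were Atp2c1 (r = 0.921) and Ankrd44 (0.919), for Smad7 Mctp1 (0.918) and H2-Ob (0.902), and for Ski Abi3 (0.935) and Vsir (0.933). Tgfbr2 was most like Plod3 (0.918) and Itgb3 (0.91), itself an integrin chain, and Nrros most like Bcl2l1 (0.936) and Spryd3 (0.902). Smad2 was most like Fcho2 and Tmem68 (0.828 for both) and Smad3 most like Gm15821 (0.939) and Tap2 (0.936). In the 47 mice left without the 3 libraries the r of Tgfbr1, Tgfbr2, Smad7 and Ski with these genes lay between 0.896 and 0.923, and those of Nrros were 0.853 and 0.828. The r of Smad3 were 0.771 with Gm15821 and 0.786 with Tap2, and those of Smad2 were 0.719 with Fcho2 and 0.801 with Tmem68. Tgfb1 was most like Rsl1 (0.86, and 0.688 without the 3 libraries) and Tirap (0.848 and 0.629). Smad4 was most like Tirap (0.832 and 0.582) and Rsl1 (0.811 and 0.592). Smurf1 was most like Ankrd27 (0.874 and 0.45) and Fam207a (0.86 and 0.282). These mice share age, treatment and library effects, so that the r are descriptions.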

How the data were processed

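Sorted hippocampal microglia of 50 mice were sequenced, 1 library per mouse. Per the paper's methods and the submitters' processing notes, the authors used bcl2fastq 2.20, cutadapt 2.10, STAR with GRCm39 and HTSeq 0.11.0, and deposited raw counts per gene without normalization. Annotation release and strand setting are not given in the sources used here. Gene positions and exon lengths came from the GENCODE vM39 annotation of GRCm39, which held 52610 of the 53700 genes.

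Mice were grouped by their labels. Counts were scaled with TMM, filtered (at least 1 CPM, counts scaled to 1000000 per library, in 3 or more mice, 16696 genes), fitted with 6 group means over all mice, and contrasts tested with edgeR 4.0.16 (R 4.3.3) by the quasi-likelihood test with Benjamini-Hochberg adjustment. A gene was called at an adjusted p under 0.05. The SE was the log2 fold change divided by the root of F. CPM per kb used the union of exons, and log2 CPM a prior count of 2. The fit was also run on simulated counts that held no age or nest effects, so that run says little on the calls made here. Members and lists were chosen with earlier results of these data known. List genes named had an adjusted p under 0.05 and a mean log2 CPM of at least 1, with up to 3 per direction, list and comparison. Genes marked as named after their values were seen are exceptions.

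Alternatives were the likelihood-ratio test, DESeq2 1.42.0, its size factors in edgeR, 3 filters, the groups compared alone, the nest (taken as the first number of each mouse's name) as a block in limma 3.58.1 or edgeR or summed, an added log2 fold change threshold of 1, leaving out each P200 mouse, and leaving out the 3 libraries with fewer than 16000 genes. The total count per mouse limits the precision of low genes.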

Additional observations from a re-analysis of the deposited data

How the results depend on the processing

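The 0 members called in the 3 comparisons of ELS with CTR and in both interactions remained 0 under every alternative run. With an added log2 fold change above 1 or under -1, 3 members were called with age in CTR mice, 4 with age in ELS mice and 0 with LPS in either condition. Leaving out 1 P200 mouse gave 4 to 8 members with age in CTR, 8 in ELS, 1 to 2 with LPS in CTR and 0 to 2 with LPS in ELS mice. It gave 0 with LPS in ELS without P200_2.2_ELS_LPS or P200_4.1_ELS_PBS. Counts summed per nest called 5 members with age in CTR mice, where Tgfbr2 was lost, 5 with age in ELS mice and 1 with LPS in CTR mice. With LPS in CTR mice 1 member was called without a filter, with only the groups compared and with the nest as a fixed block. With LPS in ELS mice 1 was called with DESeq2's size factors, without a filter, with a count of at least 1 in more than 2 mice and with only the groups compared. The causes were not tested.

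PBS and LPS mice of the same nest did not deviate together (correlations of -0.041 to 0.084 over 10 nests of P200), so the nest numbers were not taken to pair the P200 mice. P9 nests held mice of 1 group each and were not checked for pairing. With the nest as random effect (consensus correlation 0.0778), 5 members were called with age in CTR mice, where Smad3 was lost (0.57, adjusted p = 0.148), 8 in ELS mice and 2 with LPS in either condition, and Smad4 passed with LPS in CTR mice (log2 fold change 1.59, adjusted p = 0.0207) while Nrros did not (0.70, adjusted p = 0.057). The age difference in CTR mice reversed to -0.39 for Tgfb1, -0.20 for Smad4 and -0.73 for Smurf1 in that block fit, to -0.13 for Tgfb1 with counts summed per nest, and for Tgfb1 without 1 P200-CTR-PBS mouse it was -0.01 (without P200_5.1_CTR_PBS), -0.11 (P200_5.2_CTR_PBS) and up to 0.29 (P200_1.1_CTR_PBS). Of the 18 called differences none changed sign. Of 2296 values of the 72 differences that were not called, 60 had the opposite sign, for main values between -0.22 and 0.44. Between the highest and lowest levels of the members per kb in P200-CTR-PBS the ratio was 400.4, and 387.6 with the longest transcript. Fits that left out 1 P9 mouse were not run.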
